A study of Mus musculus with 8 samples.

Results

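The genes described here are 33 markers of differentiated neurons, chosen by name with earlier results of these data known. They cover neuronal transcription factors, the neuronal cytoskeleton and growth cone, RNA-binding proteins, adhesion molecules, and proteins of synaptic vesicles and transmitter synthesis. A row in the deposited table was found for 32 of them, and Tubb3 was not analysed here. Of the 32, 22 reached a value of 10 in at least 2 of the 8 libraries and were tested, among 16623 loci tested in the whole series. The other 10 reached it in fewer libraries or in none. Levels are normalised fragments, that is, RNA-seq fragments per gene locus divided by a size factor of the library.

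Embryoid bodies are floating clumps grown from mouse embryonic stem cells, in which many tissues form side by side. All 8 libraries came from C57BL/6 embryoid bodies on day 9. A Prdm16 knockout (labelled PRDM16 KO) had 2 libraries, as did its own wild-type set, called the Prdm16 control. A knockout of the PR domain (labelled PR domain KO), which the sample titles tie to exon 4, and a second wild-type set, called the PR domain control, had 2 libraries each. Prdm16 is a zinc finger transcription regulator, and the PR domain is its N-terminal part, related to histone methyltransferase domains. The labels do not say whether libraries of a group came from separate cultures or from separate stem cell clones, nor how the alleles were made, and p-values therefore reflect spread among these libraries alone, possibly of technical origin.

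As background, a neural progenitor leaves the cell cycle under proneural transcription factors and then switches on genes that shape an axon and its growth cone. Microtubule-binding proteins, stathmins and neurofilaments build and steer the axon, adhesion molecules guide it, Elav-like proteins stabilise neuronal messenger RNAs, and the vesicle release machinery follows later. Outside neurons many of these genes are held down by the repressor REST, which binds a DNA element called RE1. Prdm16 is itself known in neural progenitors of the developing brain.

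The label was checked against markers of neurons, whose levels were mixed. Rbfox3, the nuclear antigen of mature neurons, had 0 to 4.49 normalised fragments in every library, and Snap25, a part of the vesicle fusion complex, had at most 9.29. Map2, Dcx, Elavl4 and Syp had at most 44.2, 24.5, 20.1 and 18.3. Higher were Stmn2 with 37.7 to 184, Gap43 with 78.2 to 272, and the locus that Elavl3 shares with other genes with 96.8 to 132. Per transcript length, in FPKM, the highest medians over the 8 libraries among the tested members were 70.0 for the L1cam locus, 31.5 for Dpysl3, 25.3 for Ncam1 and 13.6 for Gap43. The lowest were 0.202 for Onecut2, 0.208 for Ina and 0.237 for Dcx. L1cam, Dpysl3 and Ncam1 are also known in cells other than neurons, so the genes are called neuronal genes below without a statement on how many neurons were present. Fewer cells of a type and less RNA per cell cannot be told apart in these bulk samples.

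Fragments on named loci numbered 6273789 to 9086885 per library. Prdm16 itself had 24.4 and 26.3 in its control, and 11.2 and 1.10 in knockout replicates 1 and 2, which is -2.38 as a log2 fold change (adjusted p = 0.000306 by limma). These knockout values are low and far apart. On log2(FPKM + 1) the Prdm16 change was -0.69 and was not called (adjusted p = 0.151 by limma). The PR domain control had 44.6 and 22.7 and the PR domain knockout 23.3 and 15.7, which was not called (adjusted p = 0.377). A count over the whole gene does not check the loss of a single exon. Of all tested loci, 6502 passed in the Prdm16 knockout, 3190 in the PR domain knockout and 5481 between the wild-type sets, at an adjusted p under 0.05. Higher loci made up 44.2% of the calls in the PR domain knockout, or 54.4% with median-ratio scaling.

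Promoters are shown for members that fell most in the Prdm16 knockout, chosen after the values were seen, so that the letters around their start sites can be read beside the values. RefSeq promoter windows (GRCm38.p6, the build of mm10, from 250 bases before to 50 bases after each start) matched 21 of the 33 members and 13 of the 22 tested ones, the latter with 19 windows. The 250 bases before the start are printed for Stmn3 (chr2:181314501-181314750, minus strand), Lhx1 (chr11:84525535-84525784, minus strand), Ina (chr19:47014431-47014680, plus strand) and Nrcam (chr12:44328635-44328884, plus strand). Dcx, with the second largest fall, was left out because its windows lay over the annotated gene. Each runs 5′ to 3′ on the gene's strand, and capitals mark the searched motifs.
Stmn3: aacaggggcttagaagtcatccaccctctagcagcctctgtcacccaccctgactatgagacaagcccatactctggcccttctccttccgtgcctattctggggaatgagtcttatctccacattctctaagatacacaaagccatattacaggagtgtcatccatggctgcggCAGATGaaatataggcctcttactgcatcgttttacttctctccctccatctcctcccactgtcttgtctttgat
Lhx1: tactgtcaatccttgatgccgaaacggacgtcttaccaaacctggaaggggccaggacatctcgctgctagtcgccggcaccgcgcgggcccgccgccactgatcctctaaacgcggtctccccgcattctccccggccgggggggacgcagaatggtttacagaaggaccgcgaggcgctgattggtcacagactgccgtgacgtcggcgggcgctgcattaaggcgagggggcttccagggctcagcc
Ina: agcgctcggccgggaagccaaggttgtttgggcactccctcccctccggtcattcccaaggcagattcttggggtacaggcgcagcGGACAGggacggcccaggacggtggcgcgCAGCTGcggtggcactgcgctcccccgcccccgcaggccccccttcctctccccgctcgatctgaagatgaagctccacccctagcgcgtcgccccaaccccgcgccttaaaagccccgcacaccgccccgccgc
Nrcam: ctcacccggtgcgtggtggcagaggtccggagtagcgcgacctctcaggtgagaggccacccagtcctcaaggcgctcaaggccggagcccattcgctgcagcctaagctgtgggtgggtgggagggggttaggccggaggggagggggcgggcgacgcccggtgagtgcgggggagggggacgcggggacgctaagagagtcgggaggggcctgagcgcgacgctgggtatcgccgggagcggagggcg

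The left and right parts of the RE1 element and a pair of E-boxes, the sites of proneural factors, were searched on both strands. The left RE1 part CAGCACC was in 0 of the 19 windows of tested members and in 7.14% of all 32851 windows. The right part GGACAG was in 3 of 19 (Crmp1, Ina and Map2) against 22.2% of all windows. CAGATG, an E-box, was in 6 of 19 windows, from Elavl4, L1cam and Stmn3, against 17.2% of all. CAGCTG, which reads the same on both strands, was in 4 of 19, from Elavl3, Elavl4 and Ina, against 16.3%. Some windows of Elavl4 overlap each other, as do those of L1cam, so the matches in them are not separate. A further Elavl4 match to CAGATG lay in a window apart from these. Within a window no match overlapped another. The Lhx1 and Nrcam windows held no match, which says only that these letters are not there. GC content of the printed stretches was 48.8% for Stmn3, 64.8% for Lhx1, 70.8% for Ina and 72.4% for Nrcam.

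The first comparison asked what loss of Prdm16 does to these genes, and the second asked the same of the PR domain. In the Prdm16 knockout 16 of the 22 tested genes were lower and 2 were higher (Ncam1 and Neurod1), while 21.1% of all tested loci were lower and 18.0% higher (higher loci were 45.9% of these calls, and 39.3% to 55.0% under other scalings). The median log2 fold change of the 22 was -1.12, beside -0.03 over all loci. Of the called genes 12 changed at least 2-fold, Stmn3 and Ina among them, a count not made over all loci. Calls in either direction made up 39.1% of all loci. Libraries of knockout and control did not overlap in 19 of the 22, as was so for 67.8% of all loci. In the PR domain knockout 8 were lower and 1 (Ncam1) was higher, against 10.7% and 8.48% of all loci. The median was -0.51, beside -0.03 over all loci. Calls in either direction made up 19.2% of all loci. Groups did not overlap in 14 of the 22, a share near the 56.6% of all loci whose groups did not overlap. Because the genes were chosen with earlier results known, these shares describe them and are no independent test.

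All 8 genes lower in the PR domain knockout, namely Lhx1, Mapt, Stmn2, Gap43, Nefl, Nefm, Dpysl3 and Crmp1, were among the 16 lower in the Prdm16 knockout. These 2 comparisons share no library, but both tests used the same estimate of spread from all 8 libraries, so their calls are not independent. Over all loci, 1024 of the 1780 lower in the PR domain knockout were among the 3515 lower in the Prdm16 knockout. Elavl4, L1cam, Cntn2 and Syp were called in neither. Stmn3 and Ina reached the value of 10 only in the Prdm16 control, so they could pass only where they were high. Without them the counts were 14 lower and 2 higher of 20 in the Prdm16 knockout (median -1.03) and 8 lower and 1 higher in the PR domain knockout (median -0.51).

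**Figure D1:**
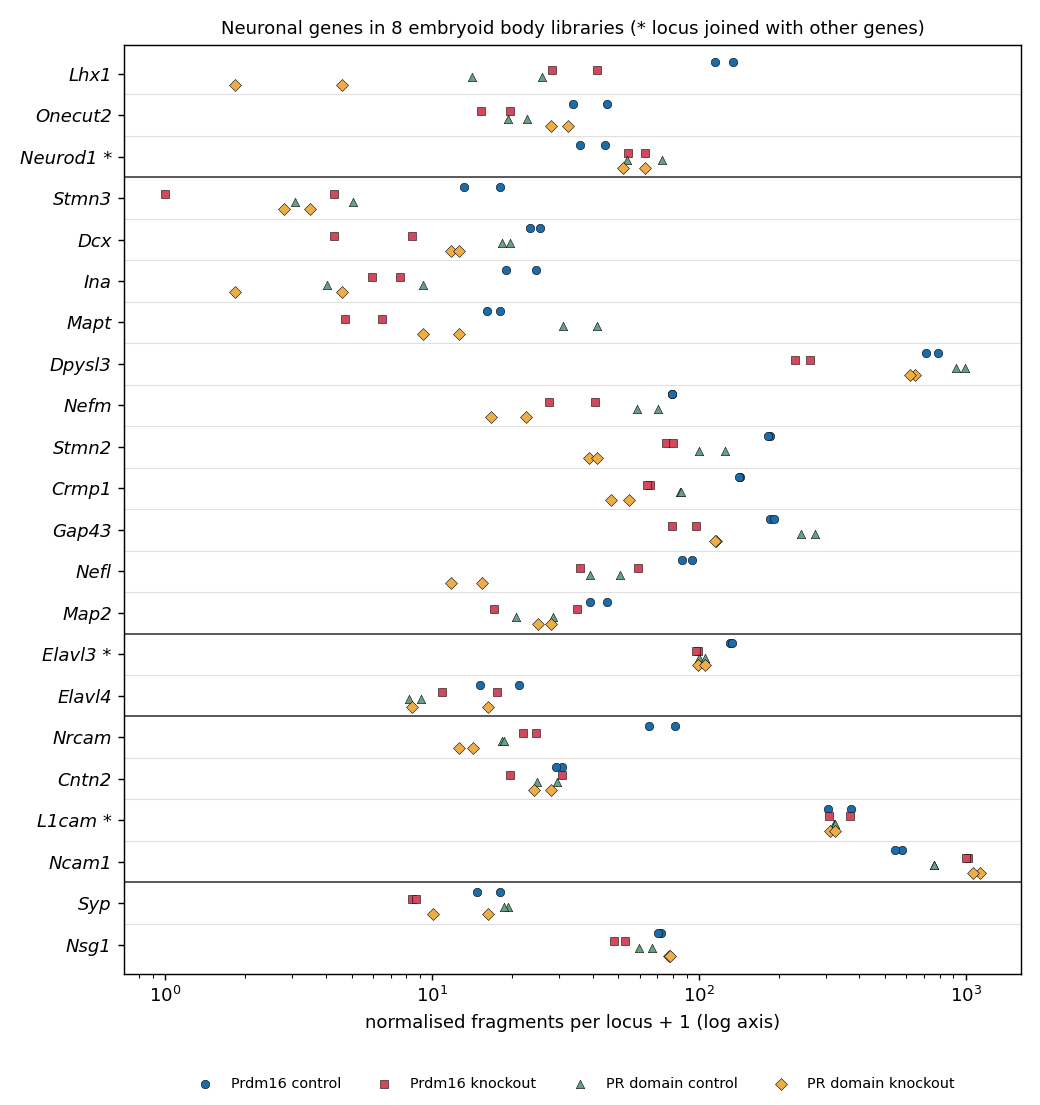
Normalised fragments plus 1 on a log axis for the 22 tested neuronal genes, with 1 point per library and 2 libraries per group, sorted by role and by change in the Prdm16 knockout. The Prdm16 control (circles) had the highest group mean in 14 of the 22 genes, and the Prdm16 knockout (squares) had the lowest in 10. Stmn3 and Ina, which reached the value of 10 only in the Prdm16 control, are among the 14. The ranking was not counted over all loci, so it describes these genes only.

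Among the transcription factors, 3 of 9 were tested. Lhx1, a LIM homeodomain factor of spinal and cerebellar neurons that is also a factor of kidney-forming mesoderm, had 134 and 114 in the Prdm16 control and 27.3 and 40.7 in the Prdm16 knockout. The PR domain control had 13.2 and 24.8, and its knockout had 3.59 and 0.827. Both knockouts lay below their own controls without overlap, while the PR domain control lay below the Prdm16 knockout. Its log2 changes were -1.86 ± 0.38 (SE, limma adjusted p = 0.000236) in the Prdm16 knockout and -2.72 ± 0.38 (adjusted p = 2.38e-06) in the other.

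Onecut2, a cut-domain factor of motor and other neurons that is also known in liver, had 32.9 and 44.2 in the Prdm16 control against 18.6 and 14.3 in the knockout. In the second pair it had 18.3 and 21.7 in the control against 26.9 and 31.4 in the knockout. The knockout libraries were thus the lower ones in the first pair and the higher ones in the second. The change in the Prdm16 knockout was -1.18 ± 0.30 (limma adjusted p = 0.00238), and its value in the PR domain knockout was 0.53 ± 0.30 (adjusted p = 0.254). Neurod1, a factor of neuronal differentiation and of endocrine cells, shares its locus with Cerkl, so its value belongs to both names. That locus had 43.5 and 34.8 in the Prdm16 control and 53.3 and 61.6 in the knockout, higher by 0.55 ± 0.22 (adjusted p = 0.0486). It had 72.0 and 52.6 in the PR domain control and 51.1 and 62.0 in its knockout, which overlapped (-0.13 ± 0.22, adjusted p = 0.767).

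Of the cytoskeleton and growth cone genes, 11 of 11 tested were lower in the Prdm16 knockout, with a median of -1.25, and 7 of 11 in the PR domain knockout, with a median of -1.08. Without Stmn3 and Ina these were 9 of 9 (median -1.24) and 7 of 9 (median -1.16). Stmn2, a stathmin that binds tubulin in growth cones, had 184 and 181 in the Prdm16 control against 74.4 and 79.2 in the knockout. The PR domain control had 125 and 99.1, its knockout 37.7 and 40.5. Its knockout libraries held 42.1% and 34.9% of the control mean, without overlap, with log2 fold changes of -1.24 ± 0.17 (limma adjusted p = 4.56e-07) and -1.48 ± 0.17 (adjusted p = 4.11e-08). Gap43, a membrane protein of the growth cone, had 184 and 190.0 in the Prdm16 control against 78.2 and 96.8 in the knockout. The PR domain pair had 272 and 242 against 115 and 114. The fall was -1.10 ± 0.13 and -1.16 ± 0.13 (limma adjusted p = 6.54e-08 and 5.98e-08), although the PR domain control started from the higher level.

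Dpysl3 and Crmp1 encode collapsin response mediator proteins, which link guidance signals to the microtubules of the growth cone. Dpysl3 had 708 and 787 in the Prdm16 control and 259 and 228 in the knockout. The PR domain control had 991 and 919, and its knockout 643 and 616. All 4 knockout libraries lay below all 4 control libraries, with log2 fold changes of -1.62 ± 0.08 (limma adjusted p = 7.79e-17) and -0.60 ± 0.08 (adjusted p = 3.99e-07). Crmp1 had 142 and 141 against 64.5 and 62.7 in the first pair, and 84.2 and 84.6 against 45.8 and 53.8 in the second. It fell in both, by 1.14 (SE 0.17) and 0.76 (SE 0.17) on the log2 scale. Part of Crmp1 overlaps Evc on the other strand.

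Nefm and Nefl, the medium and light neurofilament chains of axons, fell in both knockouts. Nefm had 78.5 and 78.1 against 39.7 and 26.4 in the Prdm16 pair, and 57.8 and 69.1 against 21.5 and 15.7 in the PR domain pair, with changes of -1.25 ± 0.25 and -1.73 ± 0.25 (limma adjusted p = 0.000164 and 3.69e-06). Nefl had 93.3 and 85.6 against 34.7 and 58.3, and 49.7 and 38.2 against 14.4 and 10.8, with changes of -0.97 ± 0.26 and -1.73 ± 0.26 (adjusted p = 0.00388 and 9.09e-06). Nefl lies within the annotated span of Nefm on the opposite strand, and no source used here gives the strand setting of the counting; the pair may therefore share fragments. Mapt, the microtubule protein tau, had 17.0 and 15.0 against 3.72 and 5.50 in the Prdm16 pair. It had 40.6 and 29.9 against 11.7 and 8.27 in the PR domain pair. Its changes were -1.62 ± 0.40 and -1.73 ± 0.40 (adjusted p = 0.00163 and 0.00175). On log2(FPKM + 1) they were -0.17 and -0.59 (adjusted p = 0.798 and 0.445), and DESeq2 did not call Mapt in the Prdm16 knockout (adjusted p = 0.0615).

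The remaining 4 cytoskeleton genes were lower in the Prdm16 knockout and passed no threshold in the PR domain knockout. Dcx, the doublecortin of migrating young neurons, had 22.3 and 24.5 against 7.44 and 3.30 in the Prdm16 pair (-2.01 ± 0.41, limma adjusted p = 0.000206), and 17.2 and 18.6 against 10.8 and 11.6 in the other (-0.64 ± 0.41, adjusted p = 0.321). Stmn3, a second neuronal stathmin, had 17.0 and 12.2 in the Prdm16 control, 0 and 3.30 in its knockout, and 1.79 to 4.06 in the other 4 libraries. Its change of -2.89 ± 0.70 in the Prdm16 knockout (adjusted p = 0.00142) rests on few fragments and ran from -3.95 to -1.19 over the alternative settings. Ina, the neurofilament protein internexin, had 18.0 and 23.5 in the Prdm16 control and 4.96 and 6.60 in the knockout (-1.68 ± 0.57, adjusted p = 0.0194), with 0.827 to 8.26 elsewhere. Part of Ina and its printed promoter stretch lie within the annotated span of Nt5c2 on the other strand. Map2, a dendritic microtubule protein, had 38.2 and 44.2 against 16.1 and 34.1 (-0.78 ± 0.31, adjusted p = 0.0497). In the PR domain pair Map2 overlapped, with 27.4 and 19.6 against 26.9 and 24.0.

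**Figure D2:**
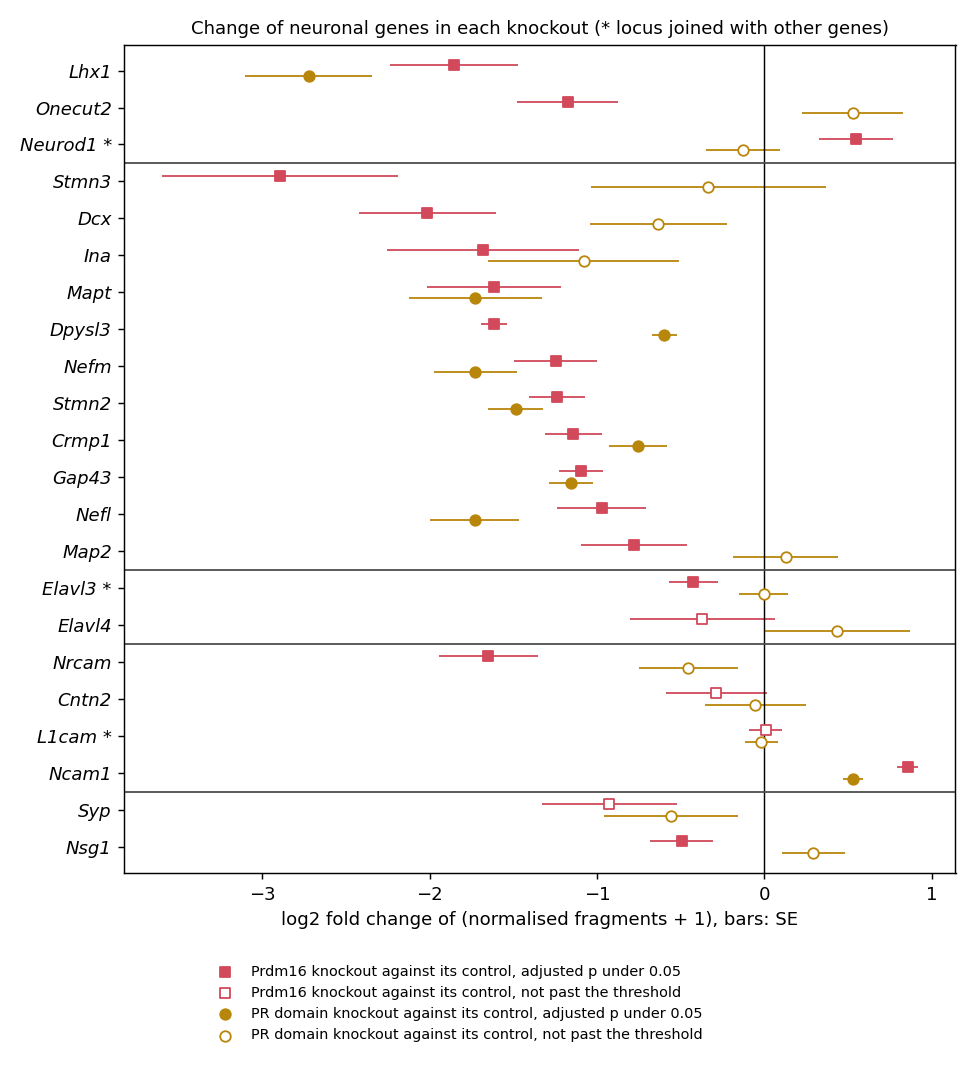
Log2 fold change of normalised fragments plus 1 for the same 22 genes in the Prdm16 knockout (squares) and the PR domain knockout (circles), each against its own control, with bars of 1 SE from the limma fit. Filled symbols passed an adjusted p under 0.05. All 11 cytoskeleton genes lie left of 0 for the Prdm16 knockout, while Ncam1 lies right of 0 for both.

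Both tested RNA-binding members belong to the Elav-like family. Elavl3 shares its locus with Gm49318 and Zfp653. That locus had 130.4 and 132 in the Prdm16 control, and 96.8 to 104 in all other libraries. It was lower in the Prdm16 knockout by 0.42 on the log2 scale (-0.42 ± 0.14, limma adjusted p = 0.0201), and its value in the PR domain knockout was -0.01 ± 0.14 (adjusted p = 0.987). Elavl4 had 7.22 to 20.1 over the 8 libraries, its groups overlapped in both pairs, and it was called in neither (adjusted p = 0.533 and 0.559).

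The 4 adhesion genes, all of the immunoglobulin superfamily, did not move as a group. Ncam1, the neural cell adhesion molecule, which muscle and mesoderm also make, had 578 and 544 in the Prdm16 control and 1024 and 1006 in the knockout. Ncam1 in the PR domain pair had 759.6 and 759.6 against 1129 and 1064. All 4 knockout libraries were above all 4 control libraries, with log2 fold changes of 0.86 ± 0.06 (limma adjusted p = 1.47e-12) and 0.53 ± 0.06 (adjusted p = 6.83e-08). Nrcam, a partner of ankyrin at nodes and growth cones, had 80.6 and 64.0 in the Prdm16 control, and 23.6 and 20.9 in its knockout. The PR domain control had 17.2 and 17.5 and its knockout 11.7 and 13.2. Nrcam fell in the Prdm16 knockout (-1.65 ± 0.30, adjusted p = 4.20e-05), with -0.45 ± 0.30 in the PR domain knockout (adjusted p = 0.327), whose control already lay below all Prdm16 libraries.

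L1cam, which promotes axon growth, shares its locus with Arhgap4 and Naa10. The locus had 303 to 370.0 in every library, with values of 0.01 ± 0.10 and -0.02 ± 0.10 in the knockouts (limma adjusted p = 0.965 and 0.926). Cntn2, an axonal contactin, had 18.6 to 29.7, and was called in neither knockout (-0.29 ± 0.30 and -0.05 ± 0.30, adjusted p = 0.477 and 0.935). Both genes overlapped between knockout and control in each pair.

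Of the 6 vesicle and transmitter genes, 2 were tested. Syp, the vesicle protein synaptophysin, had 13.8 and 16.9 in the Prdm16 control against 7.44 and 7.70 in the knockout, without overlap but past no threshold (-0.93 ± 0.40, limma adjusted p = 0.0671). The PR domain pair had 18.3 and 17.5 against 15.3 and 9.10 (-0.56 ± 0.40, adjusted p = 0.381). Nsg1, a neuronal endosome protein, had 71.0 and 69.6 against 52.1 and 47.3 in the Prdm16 pair (-0.49 ± 0.19, adjusted p = 0.0373). It had 58.8 and 66.1 against 76.3 and 76.9 in the PR domain pair (0.29 ± 0.19, adjusted p = 0.318), so its knockout libraries were below the control in the first pair and above it in the second. Part of Nsg1 overlaps Stx18 on the other strand.

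The 10 genes that were not tested were 6 transcription factors (Neurod4, Pou4f1, Phox2a, Tlx3, Myt1 and Insm1) and 4 vesicle or transmitter genes (Syt1, Syt4, Snap25 and Gad1). Phox2a, a factor of autonomic neurons, had the highest single value, 15.5 in PR domain control replicate 2. Together the 10 had 46 and 42 fragments in the Prdm16 control, 19 and 15 in its knockout, 31 and 40 in the PR domain control and 36 and 33 in that knockout. With so few fragments they were left out of the main fit, so differences of single genes among them were not tested there.

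Not every call rested on the same ground. In the Prdm16 knockout, 11 of the 18 called genes lost the call in at least 1 of 15 alternatives, and Map2 and Nsg1 kept it in 4 of 15. Stmn2, Stmn3, Gap43, Nefm, Dpysl3, Crmp1 and Nrcam kept it in all 15. For Stmn3 that is no separate support, since it has few fragments and reached the value of 10 only in the Prdm16 control. On log2(FPKM + 1) the lower genes numbered 9 in the first knockout and 4 in the second, and Ncam1 gave 0.85 (adjusted p = 0.0537) and 0.21 (adjusted p = 0.689). Without knockout replicate 1 the Map2 value was -0.26 (limma adjusted p = 0.599) and that of Nefl was -0.61 (adjusted p = 0.122). Neurod1 lost the call without Prdm16 control replicate 2 and without either knockout replicate (adjusted p = 0.0606 to 0.279), and Onecut2 without control replicate 2 (adjusted p = 0.0558). Ina lost it without either control replicate or knockout replicate 1 (adjusted p = 0.0608 to 0.137), Elavl3 and Nsg1 without any 1 of the 4 libraries (adjusted p = 0.0557 to 0.151). In the PR domain knockout Stmn2, Gap43, Nefm and Crmp1 kept the call in all 15, and Mapt lost it without control replicate 1 (-1.51, adjusted p = 0.0537).

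The third comparison tested whether the 2 knockouts differed in effect, as the PR domain knockout change minus the Prdm16 knockout change. It called 4 genes higher and 1 lower of 22, where 7.81% of all loci were higher and 8.60% lower (higher loci were 47.6% of these calls, or 63.0% with total-fragment scaling). Dpysl3 fell less in the PR domain knockout, by 1.02 ± 0.11 (log2, limma adjusted p = 2.89e-08), and Ncam1 rose less (-0.33 ± 0.09, adjusted p = 0.00764). Onecut2 differed by 1.70 ± 0.43 (adjusted p = 0.00543), lower in the first knockout with no call in the second. The differences of Nrcam (1.20 ± 0.42, adjusted p = 0.0482) and Nsg1 (0.79 ± 0.27, adjusted p = 0.0401) kept the call in 3 of 17 and 8 of 18 alternatives. For the other 17 the difference passed no threshold, Dcx, Stmn3 and Map2 included, so a call in 1 knockout alone is not shown to be particular to it.

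The 2 wild-type sets also differed in these genes. In the PR domain control 8 of 22 were lower than in the Prdm16 control and 5 were higher, against 16.7% and 16.3% of all loci, with a median of -0.36 beside -0.0023 over all loci. Without Stmn3 and Ina, which reached 10 only in the Prdm16 control, 6 of 20 were lower and 5 higher (median -0.33). The lower ones were Lhx1 (-2.70 ± 0.38), Nrcam (-1.98 ± 0.30), Stmn3, Ina, Nefl, Onecut2, Crmp1 and Stmn2, with adjusted p from 1.37e-06 to 0.0302. Higher were Mapt (1.08 ± 0.40), Neurod1, Gap43, Ncam1 and Dpysl3, with adjusted p from 9.24e-07 to 0.0364. Of these 13 calls, only that of Nrcam held in every alternative. What differs between the wild-type sets besides their origin is not given in the labels, and each knockout was therefore read against its own set.

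Other genes of the neuronal programme were read from lists of known function, also chosen with earlier results of these data known. Their counts stand beside 21.1% of all loci lower and 18.0% higher in the Prdm16 knockout, and 10.7% and 8.48% in the PR domain knockout. Neuron subtype factors were lower in 6 of 9 tested genes in the Prdm16 knockout (median -1.19) and in 4 of 9 in the PR domain knockout, with 1 higher (median -0.98). Isl1, a factor of motor and sensory neurons and also of heart progenitors, fell from 154 ± 8.79 to 54.0 ± 4.49 (mean ± SD, n = 2, a log2 change of -1.49 ± 0.14 SE, limma adjusted p = 8.50e-10) and from 232 ± 13.8 to 94.0 ± 5.39. Tlx1 fell by 1.19 and 1.48 on the log2 scale. Onecut1, a relative of Onecut2, was higher in the PR domain knockout (1.24 ± 0.38, adjusted p = 0.0197), but at 1.00 without control replicate 1 (adjusted p = 0.167) and 0.67 without knockout replicate 1 (adjusted p = 0.408). Of 5 proneural genes, 2 were lower and 2 higher in the Prdm16 knockout, and 3 were lower in the PR domain knockout. Ebf3 and Dll1, a factor and a Notch ligand of newborn neurons, fell in the Prdm16 knockout (-1.69 ± 0.17 and -1.83 ± 0.35). Btg2, an antiproliferative gene, rose there from 1174 ± 9.08 to 2377 ± 80.3 normalised fragments (mean ± SD, n = 2) and fell in the PR domain knockout from 2532 ± 26.5 to 1257 ± 89.8, a difference between the knockouts of -2.03 ± 0.07 (adjusted p = 1.33e-19).

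Cytoskeleton genes outside the 33 were lower in 10 of 16 in the Prdm16 knockout (median -0.88), beside 21.1% of all loci. In the PR domain knockout 7 of 16 were lower (median -0.26, and 5 under each other scaling), beside 10.7% of all loci. With 18.0% and 8.48% of all loci higher, 0 of these genes were higher in either knockout. Under other scalings up to 2 were higher in the Prdm16 knockout. Kif1a, a motor that carries vesicle precursors along axons, fell by 1.64 (SE 0.10) in the Prdm16 knockout. Dpysl5, of the same family as Dpysl3, fell by 2.17 (SE 0.14) there. Map1b and Tuba1a fell by 0.44 and 0.29 in the PR domain knockout. Of 11 neuronal RNA-binding genes, 6 were lower and 1 higher in the Prdm16 knockout, and 3 lower and 1 higher (2 under other scalings) in the PR domain knockout. The lower ones in both included Elavl2, a further Elav-like gene (-1.61 ± 0.29 and -1.20 ± 0.29), and Ptbp2, a neural splicing factor (-0.78 ± 0.06 and -0.37 ± 0.06). The Elavl2 call in the PR domain knockout was lost without control replicate 1 or knockout replicate 2 (adjusted p = 0.0850 and 0.143).

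Axon guidance and synaptic lists were not mostly lower. Of 17 guidance genes, 4 were lower and 7 higher in the Prdm16 knockout, beside 21.1% and 18.0% of all loci. In the PR domain knockout 6 were lower and 6 higher, beside 10.7% and 8.48% of all loci. The guidance share was thus above that of all loci mainly for higher calls in the Prdm16 knockout, and in both directions in the PR domain knockout. Slit1 and Ntn1, secreted guidance cues, fell in both (-3.26 ± 0.31 and -1.39 ± 0.31, and -1.56 ± 0.16 and -1.39 ± 0.16), while the receptors Epha3 and Plxna4 rose in both. Slit1 lost its call in the PR domain knockout without control replicate 1 or knockout replicate 2 (adjusted p = 0.0660 and 0.0882). Of 18 synaptic vesicle genes, 3 were lower and 4 higher in the first (3 to 5 and 2 to 4 under other scalings) and 2 lower and 2 higher in the second, shares close to those of all loci. Syt13 fell in the Prdm16 knockout (-1.19 ± 0.20) and rose in the PR domain knockout (0.72 ± 0.20), the latter call being lost without control replicate 2 or knockout replicate 2 (adjusted p = 0.0712 and 0.154). The difference for Syt13 was 1.91 ± 0.28 (adjusted p = 1.00e-05). Of 4 transmitter genes, Slc18a2, the vesicular monoamine transporter, fell in both (-0.24 and an adjusted p of 0.0544 in the PR domain knockout without control replicate 2) and Slc6a4, the serotonin transporter, rose in both.

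Rest, the repressor of neuronal genes, had 688 to 812 normalised fragments in all 8 libraries and was called in neither knockout (limma adjusted p = 0.394 and 0.619). A list of 12 genes held Rest, partners of its complex and other regulators such as Ptbp1. After loss of Prdm16, 3 of them were lower and 1 higher (2 to 3 and 1 to 2 under other scalings). The lower share was near the 21.1% of all loci, of which 18.0% were higher. In the PR domain knockout 3 were lower (2 under other scalings), beside 10.7% of all loci. Rcor2 was lower by 0.68 and 0.45 and Sin3b by 0.28 and 0.35 on the log2 scale.

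**Figure D3:**
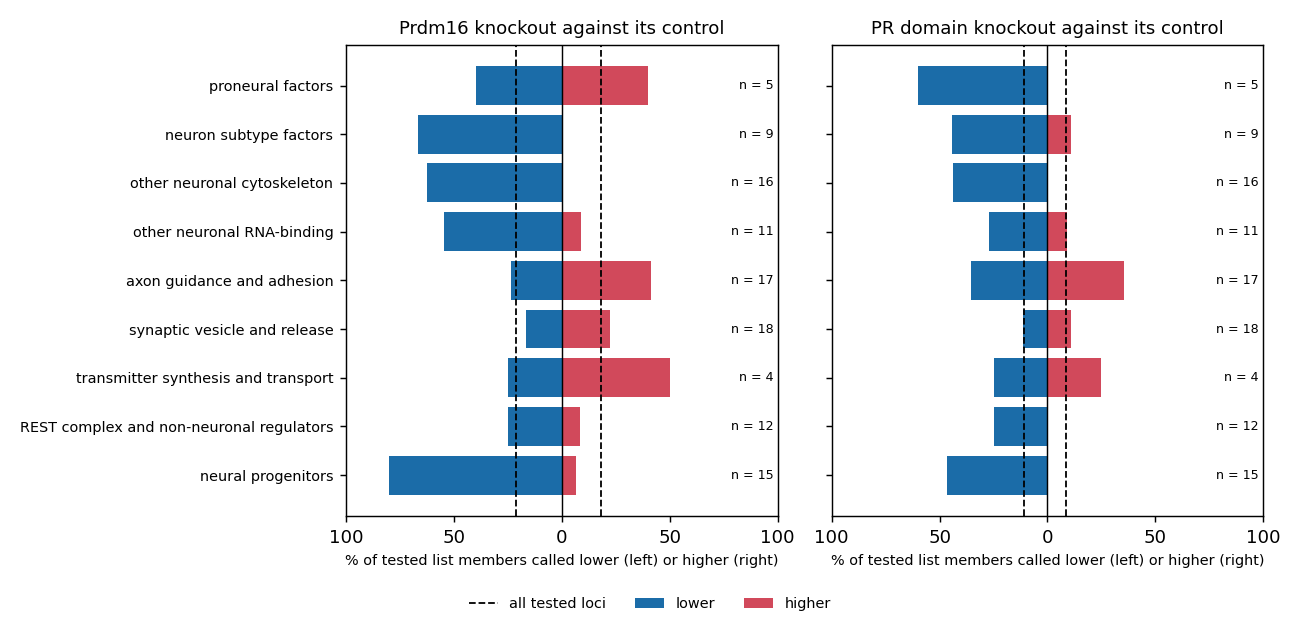
Percent of the tested genes of each list called lower (left) or higher (right) in each knockout, with the number of tested genes beside each bar and dashed lines at the percent of all 16623 loci called in that direction. Bars on the left reach past the dashed line in both knockouts for 8 of the 9 lists plotted, all but the synaptic vesicle genes, and so did the lower share in 5 of 9 lists of other cell types, not plotted, cardiomyocytes and endothelium among them. In the Prdm16 knockout the guidance (4 of 17), transmitter (1 of 4) and REST lists (3 of 12, or 2 to 3 under other scalings) pass the line by little. More guidance and transmitter genes were higher there (7 and 2) than lower.

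Markers of other cell types moved beside the neuronal genes. Of all loci, 21.1% were lower and 18.0% higher in the Prdm16 knockout, and 10.7% and 8.48% in the PR domain knockout. Neural progenitor genes, the cells that neurons come from, were lower in 12 of 15 and higher in 1 in the Prdm16 knockout (median -2.05), and lower in 7 of 15 in the PR domain knockout (median -0.53). Their summed level was 2268 and 2311 in the Prdm16 control against 1223 and 1151, and 2147 and 2101 in the PR domain control against 1398 and 1437. Sox2 fell from 242 ± 15.6 to 58.5 ± 4.97 and Irx3 from 170.4 ± 1.09 to 39.0 ± 2.47 in the Prdm16 knockout (mean ± SD, n = 2). Otx2 (-1.74 ± 0.19) and Nes (-0.46 ± 0.06) fell in the PR domain knockout. Sox1 had 55.1 and 41.4 in the Prdm16 control and 0.897 to 12.1 in the other 6 libraries. The part of progenitor abundance in the fall of the neuronal genes was not tested.

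Intermediate mesoderm and kidney genes, to which Lhx1 also belongs, were lower in 6 of 10 and higher in 1 in the Prdm16 knockout, and lower in 4 and higher in 2 in the PR domain knockout. Their sums ranged from 825 to 1130.4 over the 8 libraries. Endocrine genes, beside Neurod1, summed to 893 and 905 in the Prdm16 control, 961 and 971 in its knockout, 528 and 554 in the PR domain control and 639.6 and 648 in that knockout, while Pax4, Ins1 and Gcg were at 0 in every library and Neurog3 had at most 1.88. Neural crest genes were lower in 2 of 8 in each knockout (1 to 4 in the Prdm16 knockout under other scalings), summing to 1415 to 1647 in the Prdm16 pair and 1658 to 2118 in the other, with Sox10 at 3.18 or less in every library.

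Cardiomyocyte genes were lower in 7 of 9 and in 9 of 9, and their sums ran from 5089 to 7805 in the Prdm16 pair and from 7579 to 18600.1 in the other. Visceral endoderm genes were higher in 7 of 10 in the Prdm16 knockout, and higher in 9 of 10 and lower in 1 (Sox17, -0.99) in the PR domain knockout. Their sums were 37024 and 38719.5 in the Prdm16 control against 77765 and 78458, and 5519 and 5809.6 in the PR domain control against 10159.8 and 10064. Blood genes were higher in 6 of 8 and lower in 1 (Hbb-y, -0.28) in the Prdm16 knockout, and higher in 8 of 8 in the PR domain knockout. Sums of the blood genes were 7821 and 7905 against 11748 and 11819.8, and 11896 and 12500.2 against 23531 and 23896. Endothelial genes were lower in 4 of 6 and higher in 2 in the Prdm16 knockout, and lower in 6 of 6 in the PR domain knockout, with sums of 4261 to 4719 in the first pair and 4619.5 to 6631 in the second. Brain glia genes were higher in 1 of 6 in each knockout, and pluripotency genes lower in 2 of 3 and in 1 of 3, with 1 higher in the latter, and summing to 294 to 592 and 51.1 to 152. The part of these cell types in the neuronal values was not tested.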

How the data were processed

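Per the labels, total RNA of the embryoid bodies was purified with Trizol and a column and made into 8 TruSeq libraries. Cufflinks 2.2.1, TopHat2 2.1.1, SAMtools 1.5, deepTools and the mm10 build are named in the submitters' processing notes. No source used here gives the annotation release or the strand setting. The deposited signal values are fragments per locus that the authors divided by 1 size factor per library, in the form the file headers show. Divided by their step (0.827 to 1.24 per library), 99.99 to 100.0% of values were whole within 0.1. The authors also deposited FPKM values, used for levels per length and as an alternative. Of 53068 loci, 787 had no gene name (1.88 to 2.53% of fragments) and stayed out of the tests, and 1390 carried 2 or more names.

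The filter kept loci that reached 10 in 2 or more libraries. Limma 3.58.1 (trend, in R 4.3.3) was fitted to log2(value + 1) over all 8 libraries with 4 group means, 4 residual and 25.4 prior degrees of freedom, and Benjamini-Hochberg adjustment over 16623 loci. A call is an adjusted p under 0.05, a fold change is on the log2(value + 1) scale and so understates low genes, and n is 2 per group. The planned test for raw counts was not the main one because the values were normalised. On the recovered fragments edgeR 4.0.16 called 6470 loci in the Prdm16 knockout, 3418 in the PR domain knockout, 2875 for the difference and 5663 between the wild-type sets. Other alternatives were pseudocounts of 0.5 and 5, no filter, TMM, total-fragment and median-ratio scaling, DESeq2 1.42.0, log2(FPKM + 1), a replicate block, only the 4 libraries compared, and leaving out each library. The scripts were tested on simulated data. Coordinates come from GENCODE M21 (GRCm38) and promoters from RefSeq.

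The members and lists were chosen with earlier results of these data known. The rule for named genes was all members, Prdm16, up to 2 called genes per direction and knockout with the smallest adjusted p from each other list, and defining markers beside a result. Rest was added for its role in the background. Skeletal muscle genes had 0 tested. Replicate libraries were not copies of each other (chi-square of their fragments 1.40 to 2.23 times its degrees of freedom). The labels name no molecular identifiers, so depth speaks to counting error only.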

Additional observations from a re-analysis of the deposited data

Results flagged for a closer look

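The tests of the difference between the knockouts (PR domain knockout change minus Prdm16 knockout change, limma, log2) singled out 5 of the 22 neuronal genes. Onecut2 differed by 1.70, Nrcam by 1.20, Dpysl3 by 1.02 and Nsg1 by 0.79, each lower in the Prdm16 knockout relative to its control than in the PR domain knockout. Ncam1 differed by -0.33, with the larger rise in the Prdm16 knockout.

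The same test singled out 5 further genes that the other neuronal lists name for both knockouts. Btg2 differed by -2.03 ± 0.07 (SE, adjusted p = 1.33e-19) and Gadd45g by -1.34 ± 0.18 (adjusted p = 2.75e-06), both higher in the Prdm16 knockout and lower in the PR domain knockout. The Gadd45g rise in the Prdm16 knockout (0.46) lost its call without control replicate 2 (0.39, adjusted p = 0.0651) or knockout replicate 1 (0.26, adjusted p = 0.181). Syt13 went the other way and differed by 1.91 ± 0.28 (adjusted p = 1.00e-05). Slit1 differed by 1.87 ± 0.44 (adjusted p = 0.00339) and Ptbp2 by 0.41 ± 0.08 (adjusted p = 0.000618), both falling further in the Prdm16 knockout.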

How the results depend on the processing

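With 2 libraries per group, a lone library left after leaving out the other is assumed to vary like the rest. The cause of the lost or reversed calls was not tested. Loci called fell from 6502 to 3983 with DESeq2 and 2244 on log2(FPKM + 1) in the Prdm16 knockout, and from 3190 to 1794 and 582 in the PR domain knockout. For the difference they fell from 2728 to 1642 without a filter, 1189 with DESeq2 and 199 on FPKM, and between the wild-type sets from 5481 to 3388 and 1717. On log2(FPKM + 1) the neuronal genes lower in the Prdm16 knockout were 9 and those higher 0, lower in the PR domain knockout 4 and higher 0, for the difference 0 and 0, and between wild-type sets 3 lower and 0 higher. Genes higher in the Prdm16 knockout numbered 1 with no filter, total-fragment scaling, DESeq2, the replicate block and the 4 libraries alone. DESeq2 called 0 neuronal genes lower and 1 higher for the difference, where Onecut2 and Nrcam had no adjusted p, and no filter left 2 higher. Between wild-type sets both no filter and DESeq2 gave 5 lower and 3 higher.

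Samples with the same number in their titles shared little (correlation of replicate differences 0.008 in the Prdm16 pair and 0.034 in the PR domain pair, over 10256 loci). Such a correlation cannot show whether the samples were paired. With the replicate block, 6438 loci were called in the Prdm16 knockout, 3149 in the PR domain knockout, 2686 for the difference and 5442 between the wild-type sets. Leaving out 1 library gave 5028 to 6477 loci in the Prdm16 knockout with 11 to 16 neuronal genes lower and 1 to 2 higher, and 2180 to 3367 loci in the PR domain knockout with 7 to 8 lower and 1 higher. It gave 1950 to 2390 loci for the difference with 1 to 2 lower and 2 to 4 higher, and 4047 to 5675 between wild-type sets with 5 to 9 lower and 2 to 5 higher.

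A called value changed sign once: Nsg1 in the Prdm16 knockout was 0.024 on FPKM (adjusted p = 0.934). The others that changed sign had not been called. In the PR domain knockout, leaving out 1 library gave -0.35 to 0.096 for Neurod1, -0.10 to 0.36 for Map2, -0.70 to 0.026 for Stmn3, -0.044 to 0.034 for Elavl3, -0.036 to 0.91 for Elavl4, -0.052 to 0.011 for L1cam and -0.18 to 0.070 for Cntn2. On FPKM Map2 gave -0.40 and Nrcam 0.034. Elavl3 and L1cam gave 0.022 and 0.0068 with TMM scaling, 0.018 and 0.0026 with total-fragment scaling, 0.031 and 0.016 with median-ratio scaling, 0.024 and 0.0082 with edgeR, and 0.033 and 0.017 with DESeq2. In the Prdm16 knockout L1cam gave -0.032 with total-fragment scaling and -0.14 to 0.15 without 1 library, and Cntn2 0.25 on FPKM and -0.61 to 0.036. Between wild-type sets L1cam gave -0.20 to 0.087 without 1 library and Nsg1 0.24 on FPKM. The difference was followed gene by gene only for its 5 called genes, each of which lost the call in at least 1 alternative. Of 93 called values of genes from the other lists, 38 lost the call in some alternative, 17 of them outside FPKM.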
